A study of Mus musculus with 6 samples.

Results

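The cytosolic ribosomal protein genes encode the protein part of the large and the small ribosomal subunit. They were taken from the gene table by name, as protein-coding genes called Rpl or Rps with a number and at most 1 closing letter of the set a, x, y, l or X, together with Rplp0, Rplp1, Rplp2 and Rpsa. This gave 80 of the 54532 genes in the table, 49 of the large and 31 of the small subunit, spread over 19 chromosomes. The RNA came from mouse Prx1+ mesenchymal stromal cells (MSC) of compact bone, in 3 libraries of WT and 3 of Zeb1Prx1, and the comparison asks how the transcriptome differs between the genotypes. All 6 libraries carried Prx1-Cre+ and ROSA-YFP and were untreated. WT was Zeb1wt/wt and Zeb1Prx1 was Zeb1fl/fl, so that Cre, driven by the Prx1 enhancer of limb mesenchyme, can delete the gene for the transcription factor ZEB1 in the mutant only. Chips of femur and tibia were digested with collagenase II, the cells were grown in α-MEM with serum, and they were then sorted for the fluorescent reporter. The labels used here give no age or sex, and Xist, given below, was lower in every Zeb1Prx1 library than in any WT library. A difference of sex between the genotypes therefore cannot be told apart from genotype. The labels also do not say whether replicates of a genotype came from separate mice or cultures. The p-values therefore reflect only how far these libraries scatter, and that scatter may be technical.

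Ribosomal proteins are assembled on ribosomal RNA in the nucleolus into subunits that join in the cytoplasm to translate mRNA. Their genes are among the most strongly transcribed in growing cells, and the mRNAs are short, stable and usually begin with a pyrimidine tract (a TOP motif) through which mTOR and LARP1 control their translation. In bone, stromal cells and osteoblasts need ribosomes to make collagen matrix, and the dose of single ribosomal proteins is known to matter for the patterning of the skeleton.

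The pyrimidine tract was looked for in RefSeq windows of mouse GRCm38.p6, from 250 bases before to 50 bases after the annotated start. Windows were found for 60 of the 80 genes and for 27025 genes in all. The letters CTTTCC on the sense strand were in 25 of the 60 windows (41.7%), against 16.0% of all windows, and CTCTTTC in 13 (21.7% against 4.60%). The 2 searches can match overlapping letters. The letters CCGGAAG, the core bound by ETS factors such as GABP, were found on either strand in 25 windows (41.7% against 9.93%), AAGATGGC of the YY1 site on either strand in 5 (8.33% against 3.19%), and TATAAA on the sense strand in 5 (8.33% against 9.77%). A match anywhere in the window counted, so it need not be a TOP motif. Among the named members, the nearest tract began from 237 bases before the annotated start (Rpsa) to 43 after it (Rps19). Of the windows with a tract, 4 are shown as 30 bases each, with the matched letters in capitals. Rpl38 has the tract at the annotated start itself (chr11:114668568-114668597, plus strand). That of Rpl36a begins 32 bases after the start (chrX:134585674-134585703, plus strand). The tract of Rps15a begins 13 bases before it (chr7:118116143-118116172, minus strand), and that of Rpl39l 6 bases before it (chr16:10170210-10170239, plus strand).
Rpl38: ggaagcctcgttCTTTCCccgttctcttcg
Rpl36a: gctctagcctctCTCTTTCCgagctgctag
Rps15a: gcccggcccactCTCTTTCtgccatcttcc
Rpl39l: tagctcccaggcCTTTCCggatttccggtg
The genes with and without such letters had like ratios in the mutant libraries. In Zeb1Prx1 replicate 2, which stands apart as described next, the median ratio to the WT mean was 2.36 for 29 genes with a tract and 2.64 for 31 without. The mean of the other mutant libraries was 1.26 times WT with a tract and 1.25 times without.

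Zeb1 checks the labels. It had 6.61, 10.3 and 7.12 FPKM (fragments scaled by gene length and library depth) in WT replicates 1, 2 and 3, and 1.92, 1.59 and 2.84 in Zeb1Prx1. The genotypes did not overlap, and the log2 difference was -1.53 with a standard error of 0.22 (limma adjusted p = 0.229). Libraries held 14724357 to 18354894 fragments in genes. Zeb1Prx1 replicate 2 stood apart from the other 5 libraries, with an FPKM sum of 372566 against 278987 to 312038 and mitochondrial genes at 0.885% of fragments against 1.21% to 1.49%. The stromal marker Prrx1, which gives Prx1 cells their name, had 18.0 to 30.5 FPKM over all libraries. All 16 macrophage markers also passed the filter, with sums of 13529 to 16560 FPKM in WT and 11161, 23034 and 13315 in Zeb1Prx1. Summed stromal markers were 2394 to 3395 in WT and 5450, 3070 and 5757 in Zeb1Prx1, and chondrocyte markers 31.1 to 38.2 in WT and 527, 122 and 1656 in Zeb1Prx1. The stromal markers did not move together. Of 12 tested, 6, 5 and 8 were above the WT mean in Zeb1Prx1 replicates 1, 2 and 3, with median ratios of 1.14, 0.872 and 1.80. Markers of other blood and vessel cells were near 0, with sums of 0.474 to 1.30 FPKM. The part of these mixtures in the results below was not tested, and in bulk RNA more cells of a type and more RNA per cell cannot be told apart.

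Ribosomal protein mRNA made up a larger share of the transcriptome in each mutant library than in any WT library. The 80 genes took 5.05%, 3.99% and 5.00% of the FPKM sum in WT replicates 1, 2 and 3, and 5.78%, 9.30% and 5.46% in Zeb1Prx1. Mutant replicates 1 and 3 lay just above the highest WT library, and replicate 2 lay far above both. As fragments, which weight long genes more, the shares were 2.52%, 1.93% and 2.44% in WT and 2.73%, 5.53% and 2.70% in Zeb1Prx1.

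No single ribosomal protein gene passed the test. Of the 80 genes, 78 passed the filter on low values (FPKM of at least 1 in at least 3 libraries), which left out only Rpl3l and Rpl10l. Limma on log2(FPKM + 1), a scale that understates differences of low genes, called 0 of the 78 at an adjusted p under 0.05, and it called 0% of all 12534 genes tested. The smallest adjusted p among the 78 was 0.258, of Rpl23a. At an unadjusted p under 0.05, 23 of the 78 were higher in Zeb1Prx1 (8.15% of all genes) and 0 lower (6.98%). Voom on fragments recovered from the FPKM called 0 of the 78. It put 20 at an unadjusted p under 0.05, against 1931 of all 12534 genes in either direction. With libraries weighted by their quality as limma estimates it, 4 passed as higher, against 2.14% of all genes: Rpl41, Rpl23a, Rpl38 and Rps28, with adjusted p between 0.0463 and 0.0498. That fit gave Zeb1Prx1 replicate 2 a weight of 0.226 and replicate 3 a weight of 2.82.

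The direction was shared by all tested members. The log2 difference (Zeb1Prx1 minus WT) was above 0 for 78 of 78, against 51.9% of all genes, and its median was 0.68, against 0.02. It ran from 0.18 for Rps10 to 1.60 for Rpl23a. Every mutant library was above every WT library for 59 of 78 (12.6% of all genes), 33 of 47 in the large and 26 of 31 in the small subunit, and below for 0 (11.8%). Without Zeb1Prx1 replicate 2 the median was 0.32, against -0.00 for all genes, and both other mutant libraries were above every WT library for 59 of 78 (17.4% of all genes).

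**Figure D1:**
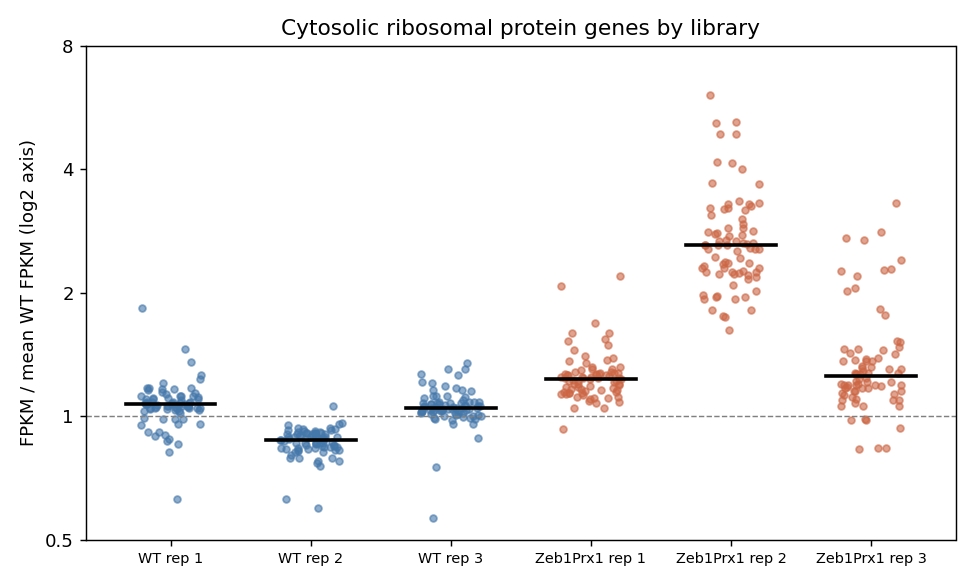
Ratio of each of the 78 tested ribosomal protein genes to its WT mean in every library, on a log axis, with 1 point per gene, WT and Zeb1Prx1 in different colours and a black bar at the median. The medians sit at 1.07, 0.876 and 1.05 in WT replicates 1, 2 and 3 and at 1.24, 2.61 and 1.25 in Zeb1Prx1 replicates 1, 2 and 3.

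Zeb1Prx1 replicate 2 differed from the other mutant libraries in the size of the difference. The median ratio to the WT mean was 2.61 in replicate 2, 1.24 in replicate 1 and 1.25 in replicate 3, where the median of all genes was between 0.989 and 1.01. Replicate 2 held the highest of the 6 values for 77 of 78 genes (32.2% of all genes), Rpl21 being the exception. At least 2-fold the WT mean was reached by 67 genes in replicate 2 (9.28% of all genes), 11 in replicate 3 (5.89%) and 2 in replicate 1 (2.9%). WT replicate 2 was the lowest of the 6 libraries for 70 of the 78, and its median ratio was 0.876, against 0.998 over all genes. The share of all genes that were lowest in that library was not counted. In the plot of all members by library, the whole cloud of points is displaced and not a few genes.

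The subunits had like ratios in each library. The median ratio of large subunit genes was 1.22, 2.56 and 1.28 in Zeb1Prx1 replicates 1, 2 and 3, and that of small subunit genes 1.24, 2.61 and 1.24. Summed FPKM of the large over the small subunit was between 1.74 and 1.81 in WT and between 1.76 and 1.81 in Zeb1Prx1. The order of the genes by level was similar in all libraries. Spearman's rho with the WT mean across 78 genes, which are not independent replicates, was 0.984 in replicate 1, 0.934 in replicate 2 and 0.922 in replicate 3, against 0.994 to 0.995 for WT libraries, which are part of that mean. The genes scattered around their shift with an SD of the log2 ratio of 0.390 in replicate 2 and 0.412 in replicate 3, against 0.193 in replicate 1 and 0.116 to 0.184 in WT.

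These were among the most abundant mRNAs of the cells. The median WT level over the tested members was 131 FPKM, against 6.98 over all tested genes, and 62 of the 80 were among the 500 genes with the highest mean. A mean above 50 FPKM was found for 71, between 5 and 50 for 5, and under 5 for 4. The most abundant were Rplp1, at rank 8 of all genes, Rplp0 at rank 23 and Rps15 at rank 44.

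The ribosomal stalk, which recruits the elongation factors, is built of Rplp0 as its base and of Rplp1 and Rplp2 as its arms. Rplp1 had 2163, 1553 and 1834 FPKM in WT, against 2275, 4831 and 2085 in Zeb1Prx1. Only the mutant replicate 2 left the WT range by a wide margin, and replicate 3 lay inside it. Means were 1850 ± 305 and 3064 ± 1533 (SD, n = 3 each), a log2 difference of 0.63 with a standard error of 0.40 (limma adjusted p = 0.442), and the fold was 1.66 with all libraries and 1.18 without replicate 2. Rplp1 alone made up 13.6% of the members' summed FPKM.

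Rplp0, often used as a reference gene in quantitative PCR, had 768, 649 and 730 FPKM in WT, against 967, 1614 and 975 in Zeb1Prx1. All 3 mutant libraries were above all WT libraries. The means were 716 ± 60.6 and 1185 ± 371 (SD, n = 3), and the log2 difference was 0.69 ± 0.28 (standard error; limma adjusted p = 0.325). Without replicate 2 the fold was 1.36 in place of 1.66. Rplp2 had 117, 90.6 and 111 FPKM in WT, against 128, 341 and 127 in Zeb1Prx1, with no overlap, though replicates 1 and 3 lay close to the highest WT value (limma adjusted p = 0.39). Rpsa, a small subunit protein also known as the laminin receptor, had 280, 192 and 243 FPKM in WT, against 305, 550 and 258 in Zeb1Prx1 (limma adjusted p = 0.405). Here replicate 3 fell within the WT range. Rps15, the third most abundant member and a small subunit protein near the decoding centre, had 402, 345 and 412 FPKM in WT, against 480, 1169 and 490 in Zeb1Prx1, with a fold of 1.85, or 1.26 without replicate 2 (limma adjusted p = 0.369).

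The members furthest above WT were Rpl23a and several genes of very small proteins. Rpl23a, a large subunit protein at the exit of the peptide tunnel (ENSMUSG00000058546, chr11:78180932-78183584, GRCm38), had 71.0, 77.7 and 99.6 FPKM in WT, against 182, 431 and 199 in Zeb1Prx1. The lowest mutant library was well above the highest WT library. Means were 82.7 ± 15 and 271 ± 139 (SD, n = 3), a log2 difference of 1.60 with a standard error of 0.35 and a 95% interval of 0.77 to 2.43 (limma adjusted p = 0.258). The fold was 3.27, and 2.31 without replicate 2.

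Rpl41 (ENSMUSG00000093674, chr10:128548114-128549305) has the shortest coding sequence of the 80 genes. Its 75 coding bases without the stop codon, from GENCODE M21 on GRCm38, lie in 3 coding exons on the minus strand (chr10:128548390-128548960) and are shown because this gene combined the shortest reading frame with one of the widest differences.
Rpl41: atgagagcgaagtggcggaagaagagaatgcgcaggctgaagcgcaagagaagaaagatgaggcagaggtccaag
Rpl41 had 156, 143 and 177 FPKM in WT, against 269, 826 and 433 in Zeb1Prx1, so that every mutant library was above every WT library. Means were 159 ± 17.1 and 509 ± 286 (SD, n = 3), and the log2 difference was 1.53 with a standard error of 0.40 and a 95% interval of 0.58 to 2.47 (limma adjusted p = 0.273). Without replicate 2 the fold was 2.21 in place of 3.20.

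Rps29, a zinc-binding small subunit protein, had 45.1, 38.0 and 67.8 FPKM in WT, against 80.2, 246 and 167 in Zeb1Prx1 (log2 difference 1.59 with a standard error of 0.43, limma adjusted p = 0.273). Its lowest mutant value was 80.2 and its highest WT value 67.8, and the fold was 2.46 without replicate 2. Rpl38, a large subunit protein whose loss in mice alters the identity of vertebrae, had 82.0, 73.8 and 92.8 FPKM in WT, against 132, 333 and 234 in Zeb1Prx1. Its log2 difference was 1.39 with a standard error of 0.34 (limma adjusted p = 0.264), and its fold was 2.81 with and 2.21 without replicate 2. Rpl37, a zinc-binding large subunit protein, had 43.5, 44.4 and 54.9 FPKM in WT, against 66.1, 153 and 96.0 in Zeb1Prx1 (limma adjusted p = 0.275). Rpl36 had 227, 199 and 233 FPKM in WT, against 289, 916 and 498 in Zeb1Prx1 (limma adjusted p = 0.29). Neither gene overlapped between the genotypes. Rps28, a small subunit protein, named after its values were seen because it passed in the weighted fit, had 17.1, 18.7 and 22.5 FPKM in WT, against 28.1, 94.6 and 52.3 in Zeb1Prx1.

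**Figure D2:**
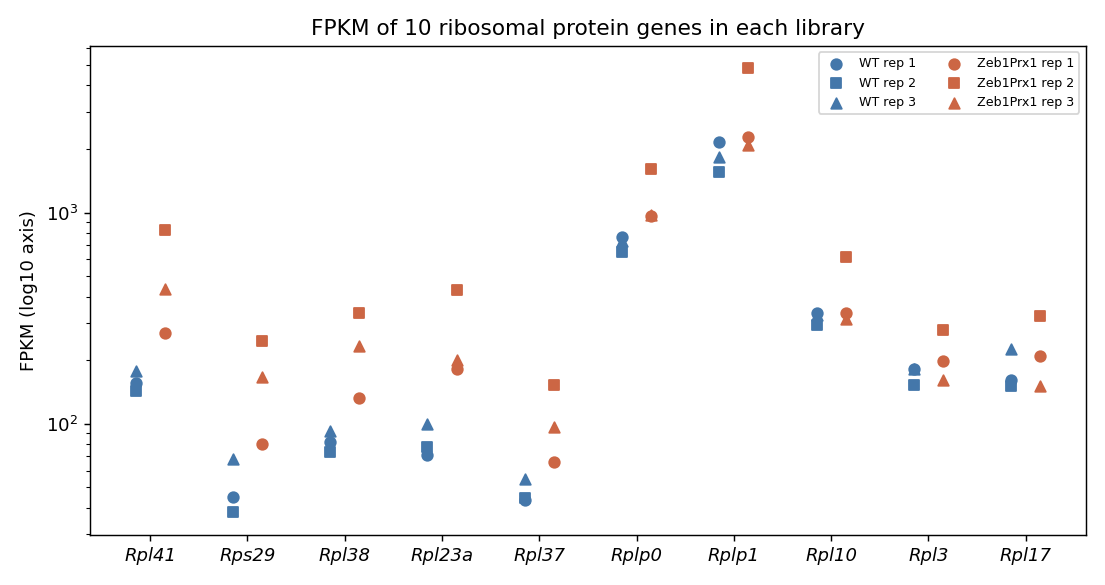
FPKM of 10 ribosomal protein genes in each library on a log axis, with WT and Zeb1Prx1 in different colours and a marker shape for each replicate number. Rpl23a, Rpl41, Rps29 and Rpl38 show a gap between the genotypes, whereas for Rpl10, Rpl3 and Rpl17 at least 1 mutant library lies inside the WT range or below it.

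Members with short coding sequences stood further from WT than members with long ones. The 7 members with fewer than 250 coding bases had a median log2 difference of 1.38, the 31 with 250 to under 450 had 0.68, the 26 tested with 450 to under 650 had 0.64, and the 14 with 650 or more had 0.58. In Zeb1Prx1 replicates 1, 2 and 3 the median ratio to the WT mean was 1.59, 4.87 and 2.69 in the shortest class and 1.23, 2.37 and 1.11 in the longest. Replicate 3 thus held the short members well above WT and the long members near it. Across the 76 members with a mean of at least 5 FPKM, Spearman's rho between coding length and ratio was -0.20, -0.47 and -0.54 in replicates 1, 2 and 3.

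The same order held for other protein-coding genes, and length was therefore set beside the members. Other protein-coding genes with fewer than 250 coding bases (139 tested) had median ratios of 1.05, 1.85 and 1.39 in Zeb1Prx1 replicates 1, 2 and 3. Those with 250 to under 450 (620) had 1.04, 1.74 and 1.25, those with 450 to under 650 (948) had 1.02, 1.48 and 1.14, and those with 650 or more (9330) had 0.98, 0.94 and 0.96. The members' medians were 1.22, 2.61 and 1.31, then 1.23, 2.50 and 1.20, in the classes of 250 to under 450 and 450 to under 650. In each class and each mutant library the members' median was above that of the other genes, by the smallest margin in replicate 3 at 250 to under 650 bases. Across 11036 other protein-coding genes rho between coding length and ratio was -0.10, -0.60 and -0.32. With a smooth trend on coding length taken out of each library, chosen after the data were seen, the median log2 difference of the members was 0.38 in place of 0.68. The median of replicate 3 alone then was 0.07, and that of replicate 2 0.82. What part of the difference goes with transcript length was not tested further.

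**Figure D3:**
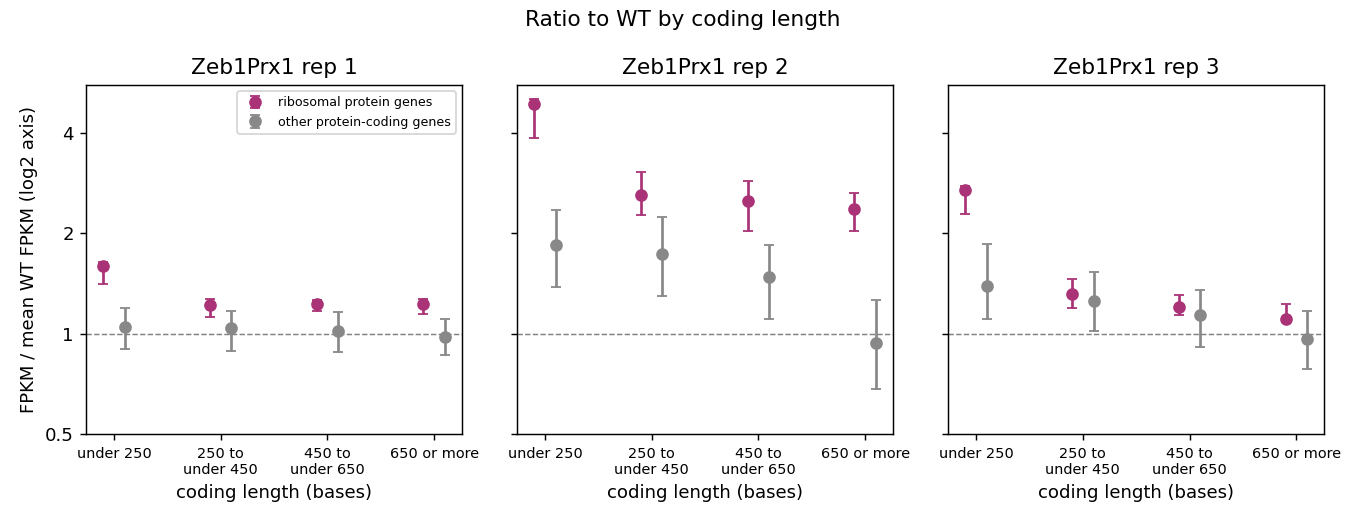
Median ratio to the WT mean (log axis) in 4 classes of coding length, for the 78 tested ribosomal protein genes (purple) and other protein-coding genes (grey) in each Zeb1Prx1 library, with bars from the lower to the upper quartile over genes. The members' medians run from 4.87 to 2.37 in replicate 2 and from 2.69 to 1.11 in replicate 3, above the medians of other genes in every class.

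The gene length in the table, which sums all annotated exons, sorted the members less clearly. Its median was 1754.5 bases over the members and 3989 over all tested genes. The 6 members with over 4000 bases had median ratios of 1.22, 2.87 and 1.27 in Zeb1Prx1 replicates 1, 2 and 3, whereas 6245 other genes of that length had 0.96, 0.81 and 0.92. Rps15a has the longest entry, 6270 bases, but a coding sequence of 390 bases. It had 38.5, 30.4 and 39.1 FPKM in WT, against 45.7, 103 and 51.1 in Zeb1Prx1 (limma adjusted p = 0.323), with no overlap. Rps24, whose splice forms are known to differ between tissues, had 63.2, 46.9 and 59.3 FPKM in WT, against 66.5, 157 and 68.8 in Zeb1Prx1 (limma adjusted p = 0.383). Rps19, the gene most often mutated in Diamond-Blackfan anaemia, had 52.6, 40.9 and 52.3 FPKM in WT, against 59.3, 160 and 70.7 in Zeb1Prx1 (limma adjusted p = 0.335). All 3 long entries were thus above WT in every mutant library, with replicate 2 highest.

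For 19 of the 78 the genotypes overlapped, among them Rplp1, Rpsa, Rpl3, Rpl10, Rpl17 and Rps10. Zeb1Prx1 replicate 3 was below the WT mean for 7 (Rpl3, Rpl10, Rpl12, Rpl17, Rpl35a, Rpl39l and Rps10), and replicate 1 for Rpl35a only. Rpl12, Rpl35a and Rpl21 were named after their values were seen. Rpl3, the large subunit protein next to the peptidyl transferase centre, had 181, 152 and 181 FPKM in WT, against 199, 278 and 161 in Zeb1Prx1. It had the lowest ratio in replicate 2 of the members with at least 5 FPKM, and its fold was 1.24, or 1.05 without replicate 2 (limma adjusted p = 0.566). Rpl17 had 161, 151 and 226 FPKM in WT, against 208, 325 and 150 in Zeb1Prx1, and its fold without replicate 2 was 1.00 (limma adjusted p = 0.647).

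The 4 X-linked members differed among themselves. Rpl39, at the peptide exit tunnel, had 68.3, 65.0 and 102 FPKM in WT, against 107, 254 and 180 in Zeb1Prx1 (limma adjusted p = 0.275), and Rpl36a 28.3, 26.1 and 34.4 in WT and 41.4, 109 and 65.2 in Zeb1Prx1 (limma adjusted p = 0.275). Both were above WT in every mutant library. Rps4x had 381, 302 and 369 FPKM in WT, against 383, 855 and 385 in Zeb1Prx1, so that replicates 1 and 3 lay just above the highest WT library (limma adjusted p = 0.466). Rpl10 had 335, 294 and 328 in WT and 335, 618 and 314 in Zeb1Prx1, and its fold without replicate 2 was 1.02 (limma adjusted p = 0.569). Xist, the RNA of the inactive X chromosome, had 26.8 to 40.4 FPKM in WT, against 1.47, 0.00309 and 12.6 in Zeb1Prx1, lowest in replicate 2. Sex may thus differ between the libraries, and it cannot be told apart from genotype. Whether Xist goes with the levels of the X-linked or of the other members was not tested.

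Paralogs known from single tissues were low or at 0. Rpl3l, of heart and skeletal muscle, had 4, 3 and 0 fragments in WT and 2, 0 and 0 in Zeb1Prx1. Rpl10l, of the testis, had 0 in all 6 libraries, where a floor of 3 fragments, which covers counting error only, corresponds to 0.163 to 0.204 CPM (fragments scaled by library depth alone). Rpl39l, a copy of Rpl39 known from testis and some tumours, had 8.42, 2.74 and 2.59 FPKM in WT, against 9.51, 27.8 and 4.49 in Zeb1Prx1, on 33 to 416 fragments per library. The genotypes overlapped, and WT replicate 1 stood at the level of Zeb1Prx1 replicate 1 (limma adjusted p = 0.381). Rps27l, a copy of Rps27 that p53 induces, had 116, 71.5 and 88.2 FPKM in WT, against 113, 235 and 140 in Zeb1Prx1 (limma adjusted p = 0.324), and also overlapped. These coding sequences from GENCODE M21 on GRCm38 are shown with the bases that differ within a pair in capitals. They bear on how well reads from coding bases can tell the copies apart, and untranslated parts are not shown. Rpl39 (chrX:37082704-37085127, minus strand) and Rpl39l (chr16:10174310-10174462, plus strand) differ at 23 of 153 bases, an identity of 85.0%. Rps27 (chr3:90212728-90213615, minus strand) and Rps27l (chr9:66946175-66949354, plus strand) differ at 60 of 252, an identity of 76.2%.
Rpl39: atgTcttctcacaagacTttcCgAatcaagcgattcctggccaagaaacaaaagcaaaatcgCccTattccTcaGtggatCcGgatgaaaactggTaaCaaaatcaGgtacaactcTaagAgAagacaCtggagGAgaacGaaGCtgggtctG
Rpl39l: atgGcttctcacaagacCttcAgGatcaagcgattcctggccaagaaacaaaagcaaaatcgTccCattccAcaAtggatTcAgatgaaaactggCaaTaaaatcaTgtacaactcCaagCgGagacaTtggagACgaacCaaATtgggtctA
Rps27: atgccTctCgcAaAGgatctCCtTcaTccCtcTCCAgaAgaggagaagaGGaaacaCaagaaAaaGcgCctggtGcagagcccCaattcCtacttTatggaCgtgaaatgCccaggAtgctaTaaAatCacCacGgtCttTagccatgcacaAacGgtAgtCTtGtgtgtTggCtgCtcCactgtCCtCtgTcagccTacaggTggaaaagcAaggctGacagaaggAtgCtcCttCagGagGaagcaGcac
Rps27l: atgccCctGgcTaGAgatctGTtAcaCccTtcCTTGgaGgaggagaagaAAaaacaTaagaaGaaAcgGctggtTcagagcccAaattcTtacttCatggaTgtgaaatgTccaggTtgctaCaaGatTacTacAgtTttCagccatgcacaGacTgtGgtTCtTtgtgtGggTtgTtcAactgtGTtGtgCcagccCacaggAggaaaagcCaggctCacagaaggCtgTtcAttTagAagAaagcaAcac

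Other copies are closer still, and values of their genes are uncertain. Rps27rt, an intronless protein-coding copy of Rps27 with 1 coding exon (chr9:114982456-114982707, minus strand) that the name rule leaves out, has the coding sequence of Rps27 with 0 differences in 252 bases. Rps27rt had 33.3, 30.6 and 53.6 FPKM in WT, against 93.0, 350 and 192 in Zeb1Prx1 (limma adjusted p = 0.258), and Rps27, named after its values were seen, 66.9, 74.5 and 104 in WT and 105, 185 and 124 in Zeb1Prx1 (limma adjusted p = 0.302). In CPM, the ratios to the WT mean in Zeb1Prx1 replicates 1, 2 and 3 were 2.31, 8.51 and 4.63 for Rps27rt and 1.25, 2.16 and 1.43 for Rps27. Their sum had 1.41, 3.09 and 1.90 and a fold of 2.13, where Rps27 alone had 1.61. The sum does not depend on how reads were split within the pair. It may still depend on shared reads that were dropped or given to other copies. Rps12-ps3, a retrocopy annotated as protein-coding and named after its values were seen, had 43.0, 42.9 and 65.1 FPKM in WT, against 180, 516 and 213 in Zeb1Prx1. Rps12 together with it had a fold of 1.81 in CPM, against 1.44 for Rps12 alone.

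Pseudogenes whose description names a member's protein gave a smaller part of the signal. The search found 376. It needed a capital letter right after the words ribosomal protein, and copies that are described otherwise may be missed. It gave 0 for Rplp0, Rplp1 and Rplp2, which does not show that these genes have no pseudogenes. Of the 376, 87 passed the filter. Fragments of the 376 came to between 4.19% and 4.54% of the members' fragments in each library. Limma called 0 of the 87, with 27 higher at an unadjusted p under 0.05 (8.15% of all genes), and the log2 difference was above 0 for 77 (51.9% of all genes) with a median of 0.50. Rps10, Rpl17 and Rpl21 had fewer fragments than their pseudogenes, which held 20.8, 1.76 and 1.44 times as many. Rps10 had 2.08, 1.41 and 1.83 FPKM in WT, against 2.02, 3.10 and 1.47 in Zeb1Prx1, the smallest difference of the 78 (limma adjusted p = 0.689). Its fold in CPM was 1.19 alone and 1.98 with the fragments of its pseudogenes added. Rpl23a had a fold of 3.14 alone and 2.58 with its pseudogenes. Rpl24, a large subunit protein with 33 to 136 fragments per library, had 2.33, 2.08 and 2.15 FPKM in WT, against 3.26, 7.33 and 2.80 in Zeb1Prx1, with no overlap (limma adjusted p = 0.333).

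Ribosomal proteins whose names the rule does not match were also higher in the mutant mean. All 8 tested genes of that list had a log2 difference above 0, with a median of 0.71, or 0.27 without replicate 2, and 0 were called by limma. Fau, a precursor that releases the small subunit protein eS30, had 334, 323 and 363 FPKM in WT, against 378, 1045 and 440 in Zeb1Prx1. Rps3a1 had 622, 471 and 598 in WT and 691, 1387 and 660 in Zeb1Prx1. Rack1, a scaffold on the small subunit, had 155, 120 and 149 in WT and 169, 289 and 153 in Zeb1Prx1. Fau, Rps3a1 and Rack1 were named after their values were seen. Fau and Rps3a1 did not overlap between the genotypes, and in Rack1 replicate 3 lay inside the WT range.

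Noncoding host genes of small nucleolar RNAs, whose transcripts also begin with a pyrimidine tract, had the highest median of the lists of the translation machinery. All 8 tested of 9 had each mutant library above each WT library, where 12.6% of all genes did. Their median log2 difference was 0.93, or 0.62 without replicate 2. Limma called 0, and 7 were higher at an unadjusted p under 0.05 (8.15% of all genes). Gas5, the best known of them, had 14.2, 13.8 and 19.3 FPKM in WT, against 24.5, 42.1 and 31.5 in Zeb1Prx1 (limma adjusted p = 0.264). Snhg12 had 5.30, 4.41 and 5.99 in WT and 9.79, 15.2 and 8.78 in Zeb1Prx1 (limma adjusted p = 0.264), and Snhg6 11.2, 7.89 and 8.86 in WT and 14.4, 30.2 and 16.3 in Zeb1Prx1 (limma adjusted p = 0.275). Their median ratios to the WT mean were 1.39, 3.08 and 1.70 in Zeb1Prx1 replicates 1, 2 and 3.

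Translation factors of the same mRNA class had a lower median. Of 20 tested, 16 had a log2 difference above 0, with a median of 0.37, or 0.12 without replicate 2. Limma called 0, and 0 were higher (8.15% of all genes) and 1 lower (6.98%) at an unadjusted p under 0.05. Eef1b2, the exchange factor of elongation factor 1, had 134, 105 and 125 FPKM in WT, against 154, 333 and 159 in Zeb1Prx1. Eif3h, a subunit of initiation factor 3, had 99.9, 93.0 and 97.6 in WT and 113, 171 and 124 in Zeb1Prx1. Both were above WT in every mutant library. Eif2s3x, the X-linked gamma subunit of initiation factor 2, went the other way, with 29.5, 27.0 and 23.0 FPKM in WT, against 18.8, 14.1 and 21.3 in Zeb1Prx1 (limma adjusted p = 0.298).

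Genes that make ribosomes, as opposed to being part of them, had a lower median still. Of 51 tested biogenesis factors, 41 had a log2 difference above 0, with a median of 0.19, or 0.10 without replicate 2. Limma called 0, with 0 at an unadjusted p under 0.05, against 1897 of all 12534 genes in either direction. Ebna1bp2, an assembly factor of the large subunit, had 10.7, 9.04 and 8.21 FPKM in WT, against 11.6, 18.7 and 11.4 in Zeb1Prx1. Polr1c, a subunit of RNA polymerases I and III, had 10.8, 10.7 and 11.1 in WT and 12.5, 19.8 and 12.8 in Zeb1Prx1. Regulators of ribosomal protein synthesis had a median of -0.17, or -0.10 without replicate 2, with 6 of 17 above 0 and 0 called. Eif4ebp1, the mTOR-controlled repressor of cap-dependent translation, had 29.1, 28.2 and 23.5 FPKM in WT, against 40.9, 57.0 and 33.2 in Zeb1Prx1 (limma adjusted p = 0.294). Mtor itself, named after its values were seen, had 5.64, 8.92 and 6.36 in WT and 5.84, 2.72 and 5.73 in Zeb1Prx1, and overlapped. Rps6ka1, a kinase of ribosomal protein S6, had 37.6, 31.8 and 32.2 in WT and 29.3, 27.0 and 20.4 in Zeb1Prx1. The lists also differ in length. Median gene length was 2066 bases for the snoRNA hosts and 1754.5 for the members. It was 3022 for translation factors, 3837 for biogenesis factors and 5784 for regulators. Median coding lengths of the last 3 were 1120.5, 1527 and 1467 bases, against 453 for the members. What part of the order of these lists goes with length was not tested.

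**Figure D4:**
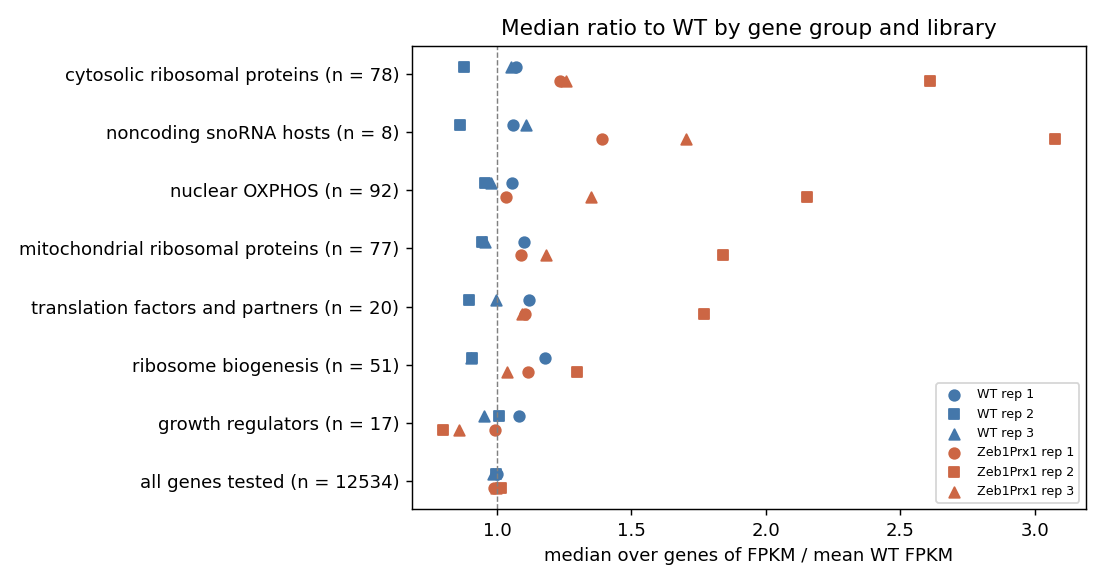
Median ratio to the WT mean in each library for the ribosomal protein genes, other gene lists of the translation machinery, mitochondrial gene groups and all genes, with WT and Zeb1Prx1 in different colours and a marker shape for each replicate number. In Zeb1Prx1 replicate 2 the ribosomal protein genes lie at 2.61 and the small nucleolar RNA hosts at 3.08, above mitochondrial ribosomal protein genes at 1.84 and oxidative phosphorylation genes at 2.15, and all genes lie at 1.01. Oxidative phosphorylation genes lie above the ribosomal protein genes in replicate 3 (1.35 against 1.25) and below them in replicate 1 (1.03 against 1.24).

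Genes of the mitochondrial ribosome, which is made of other proteins, and of oxidative phosphorylation are short as well. Their median coding lengths were 588 and 433.5 bases, against 1353 over all tested genes. Mitochondrial ribosomal protein genes had median ratios of 1.09, 1.84 and 1.18 in Zeb1Prx1 replicates 1, 2 and 3, with 28 of 77 above WT in every mutant library, against 59 of 78 for the cytosolic genes and 12.6% of all genes. Nuclear oxidative phosphorylation genes had 1.03, 2.15 and 1.35, with 29 of 92. Limma called 0 in each of both groups, and 14 and 22 were higher at an unadjusted p under 0.05 (8.15% of all genes). Proliferation genes had a median log2 difference of -0.15, with 6 of 20 above 0, and the macrophage list -0.30, with 3 of 16 above 0. Adgre1, the macrophage antigen F4/80, had 215, 230 and 250 FPKM in WT, against 164, 119 and 117 in Zeb1Prx1. The list as a whole was not lower in replicate 2: its median ratios to the WT mean were 0.721, 1.11 and 0.710 in Zeb1Prx1 replicates 1, 2 and 3, with 0, 10 and 1 of 16 genes above the WT mean. Malat1, a nuclear RNA, had 186, 271 and 264 in WT and 181, 87.3 and 186 in Zeb1Prx1, lowest in replicate 2. The part of cell makeup and of RNA quality in the levels of the ribosomal protein genes was not tested.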

How the data were processed

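The authors deposited 1 table of FPKM per gene for the 6 libraries, with gene length and annotation. For the aligner, the counter and the strand setting, the sources used here give nothing. Coordinates of 98.3% of the genes equal GENCODE M21 on GRCm38. Divided by the value of 1 fragment, all 127408 values above 0 came out whole (relative tolerance 1e-06), so fragments were recovered for voom and for depth. The test was limma 3.58.1 (R 4.3.3) with a trend of variance on level, two-sided, on log2(FPKM + 1) of the 12534 genes that reached an FPKM of 1 in 3 or more of the 6 libraries, with Benjamini-Hochberg adjustment and a threshold of 0.05. The fit was also run on simulated data that held no outlying library and no length trend, so that run says nothing about either.

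The members and lists were chosen with earlier results of these data known. The genes named are Zeb1; the stalk genes and Rpsa; paralogs; the 3 highest, lowest, shortest and longest members; the 5 smallest unadjusted p in each direction; the 3 highest and lowest ratios of Zeb1Prx1 replicate 2 at a mean FPKM of at least 5; X-linked members; and up to 3 genes per list by unadjusted p. No tested member had a log2 difference below 0, so that direction names none. Some genes the rule names are not reported here. Alternatives were other pseudocounts (0.1 and 0.5), filters, scalings, library weights, length trends (loess span 0.5), a replicate block and leaving out each library. Gene names were matched to RefSeq GRCm38.p6 start windows for 60 of 80 members.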

Additional observations from a re-analysis of the deposited data

How the results depend on the processing

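The count of ribosomal protein genes past the threshold was 0 with limma and under every alternative that was run except library weights, where it was 4. The number at an unadjusted p under 0.05 was between 8 (without WT replicate 2) and 37 (without Zeb1Prx1 replicate 1), against 23. Over all genes the same counts, in either direction, were 1118 of 12285, 2821 of 12242 and 1897 of 12534. The median log2 difference of 0.68 was above 0 under every alternative run. It was 0.32 without Zeb1Prx1 replicate 2, 0.37 with quantile normalization, 0.38 and 0.43 with the trend on coding length or gene length removed, and 0.40 with library weights. Leaving out 1 library in turn gave 0.32 to 0.86. With each library scaled to an equal FPKM sum it was 0.51, and the median of all genes moved from 0.02 to -0.12.

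By library, the median log2 ratio to the WT mean was 1.38 in Zeb1Prx1 replicate 2 and 0.31 in replicates 1 and 3. Replicate 2 had 1.00 with equal sums, 0.94 with the gene length trend removed and 0.82 with the coding length trend removed. Replicate 3 had 0.14 and 0.074 with those trends removed. The members' shares were 2.52%, 1.93%, 2.44%, 2.73%, 5.53% and 2.70% as fragments in place of FPKM, in the order of WT and then Zeb1Prx1 replicates. Of the members tested, the log2 difference was above 0 for 76 with quantile normalization, 77 with the gene length trend removed, 76 with the coding length trend removed, 75 with library weights, 77 without WT replicate 1 and 76 without Zeb1Prx1 replicate 2. Among the members chosen by the naming rule, those below 0 were Rpl17 with quantile normalization (-0.060) and library weights (-0.12), Rpl3 with quantile normalization (-0.061), and Rps10 with the gene length trend removed (-0.015), library weights (-0.042) and the coding length trend removed (-0.10). Leaving out 1 library in turn gave Rps10 between -0.014 (without Zeb1Prx1 replicate 2) and 0.35. Rpl35a, outside that rule, had -0.11 without Zeb1Prx1 replicate 2. The causes were not tested.

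With the replicate number as a block, the members' median was 0.68 and 0 of them were called. At an unadjusted p under 0.05 there were 13, against 1347 of all 12534 genes in either direction. Same-numbered libraries deviated together with a correlation of 0.03, -0.41 and 0.08 across genes, and differently numbered ones with -0.48 to 0.46. With 3 libraries per genotype, these values cannot tell whether the numbers pair the samples.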
